A study of Canis lupus familiaris with 24 samples.

Results

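Pancreatic endocrine (PE) progenitor cells on day 8 of induction were compared with undifferentiated canine adipose-derived mesenchymal stem cells (cAD-MSCs) of the same day. The comparison was chosen by sample label and holds 8 of the 24 samples of the series, 4 of PE cells and 4 of controls. All genes with values in these samples were taken, which are 6 of the 26 genes of the series, and 5 of the 6 are reported by name. The labels give 4 cell lines, numbered 1 to 4, each with a control and a PE sample, and the paper's methods give a different donor dog for each line.

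The control group consists of undifferentiated cAD-MSCs labelled day 8 and grown in DMEM. The cells came from abdominal fat of healthy dogs, whose ages are not given per line. The PE group consists of cells of the same lines that had passed 2 stages in serum-free medium. In the first, to day 3, the cells were turned toward definitive endoderm with Chir99021, a GSK3 inhibitor that activates Wnt signaling, followed by Activin A, with sodium butyrate, an inhibitor of histone deacetylases, in both media. In the next, to day 8, they were first given FGF2, EGF and the amino acid taurine. Retinoic acid, nicotinamide, dorsomorphin (a BMP inhibitor), a TGFβ inhibitor and DAPT, a γ-secretase inhibitor that blocks Notch signaling, came after. The labels name these agents but not their order, which was taken from the methods. In the methods, induced cells grew as floating colonies and cAD-MSCs as attached cells on plastic, so medium, serum and culture form differ together between the groups and cannot be told apart. Each sample is a bulk RNA extract, in which fewer cells of a type and less RNA per cell cannot be told apart.

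In the embryo the pancreas buds from the posterior foregut, which is itself patterned out of definitive endoderm by retinoic acid, FGF and BMP signals. Foregut cells fated for pancreas switch on a set of transcription factors. HNF4A is a nuclear receptor of gut, liver and pancreas, HNF6 (ONECUT1) is a homeodomain factor that acts before endocrine cells form, PTF1A is a bHLH factor of early progenitors and later of acinar cells, and SOX9 keeps progenitors proliferating. SOX9 is also the leading transcription factor of cartilage, a lineage that MSCs can enter. HES1 is a bHLH repressor switched on by Notch, and it holds back *Ngn3* and with it endocrine commitment. The question put to these samples was whether these genes differ between cAD-MSCs and cells that had passed both induction stages. The PE medium cannot be told apart here from the stage before it.

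Of the 4 genes taken as PE markers, the progenitor genes *Hnf6*, *Ptf1a* and *Sox9* rose from controls to PE cells and the Notch target *Hes1* fell, with no overlap between the groups. Together with the gene not named here, 5 of the 6 genes separated, or 83.3% of those tested, 66.7% upward and 16.7% downward. On day 3 57.1% of 7 genes separated and on day 13 84.6% of 13 genes, all of them upward. Most of the genes chosen for these assays thus separated at each stage by the ratio to the reference gene *Gapdh*. On day 13 the Ct of *Gapdh* itself was 5.13 cycles later in induced cells, and its part in that share was not tested. *Hnf4a* was the gene of day 8 whose groups overlapped. Further genes were looked for among those reported by name, and the unnamed gene was not matched to these lists. Of 7 further progenitor genes, *Hnf4a* was the only one found there with day 8 values. Of 8 endocrine genes and 7 genes of undifferentiated or mesodermal cells, 0 were found. How much of the MSC program remained is therefore not analysed here.

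Each gene and sample has a Ct and a ratio. The Ct counts the cycles needed for the SYBR Green signal to pass a set level, so that 1 cycle earlier stands for a doubling of template. The deposited ratio divides a gene by *Gapdh*, a glycolytic enzyme used as the reference, in the same sample. Relative mRNA expression is that ratio over the mean ratio of the 4 day 8 controls, whose mean is therefore 1. The Mann–Whitney U test, exact and two-sided, was used for each gene, and with 4 against 4 samples it falls under 0.05 only when the groups do not overlap (p = 0.0286). The PCR ran for 45 cycles according to the labels, yet the highest Ct listed is 40. On day 8, 10 of the 48 Ct values lay within 0.1 cycles of it, all in controls, and are called here at the limit.

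*Hnf6* had the largest change of the 5 genes in every line. Its Ct was 39.99, 39.97, 40 and 40 cycles for control cells of lines 1 to 4, all at the limit. In PE cells it was 33.77, 33.37, 34.54 and 34.93 cycles. The PE samples were thus 5.07 to 6.6 cycles earlier than their own controls. Its relative mRNA expression in PE cells was 98.3, 129, 85.8 and 85.3, which makes a change of at least 99.6 ± 20.5-fold (SD, n = 4; exact Mann–Whitney U test, p = 0.0286, Benjamini-Hochberg adjusted over the 6 genes 0.0343). Compared with its own control, each line rose by at least 65.1, 98.2, 157 and 136 times relative to *Gapdh*. By Ct alone the lines rose by at least 74.5, 97.0, 44.0 and 33.6 times. Because the controls were at a limit, the value assigned to that limit sets the fold, and with every Ct later than 38 set to 38 it was 25.1-fold, still without overlap. With an amplification factor of 1.8 per cycle it was 50.0-fold. Here and below, a lower bound assumes a doubling per cycle and controls no earlier than their listed Ct. A bound on a ratio also takes *Gapdh* as a valid reference, which was not tested.

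*Ptf1a* also started from controls at the limit, with Ct values of 39.93, 39.90, 40 and 40 cycles. PE cells had 36.09 and 35.31 cycles in lines 1 and 2 but 39.13 and 39.44 cycles in lines 3 and 4. *Ptf1a* therefore emerged clearly in 2 lines, and in lines 3 and 4 its Ct moved from the limit by only 0.87 and 0.56 cycles. Relative to *Gapdh*, however, the 4 lines looked alike, at no less than 5.76, 8.87, 6.53 and 5.96 times their own controls. In lines 3 and 4 the *Gapdh* Ct behind these ratios was 1.84 and 2.01 cycles later in PE cells than in controls. The mean relative expression was at least 6.94 ± 4.12 (SD, n = 4; exact Mann–Whitney U test, p = 0.0286, adjusted 0.0343). By Ct alone, the same lines would have risen 14.3, 24.1, 1.83 and 1.47 times. With every Ct later than 38 set to 38, the value was 2.48-fold.

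**Figure D1:**
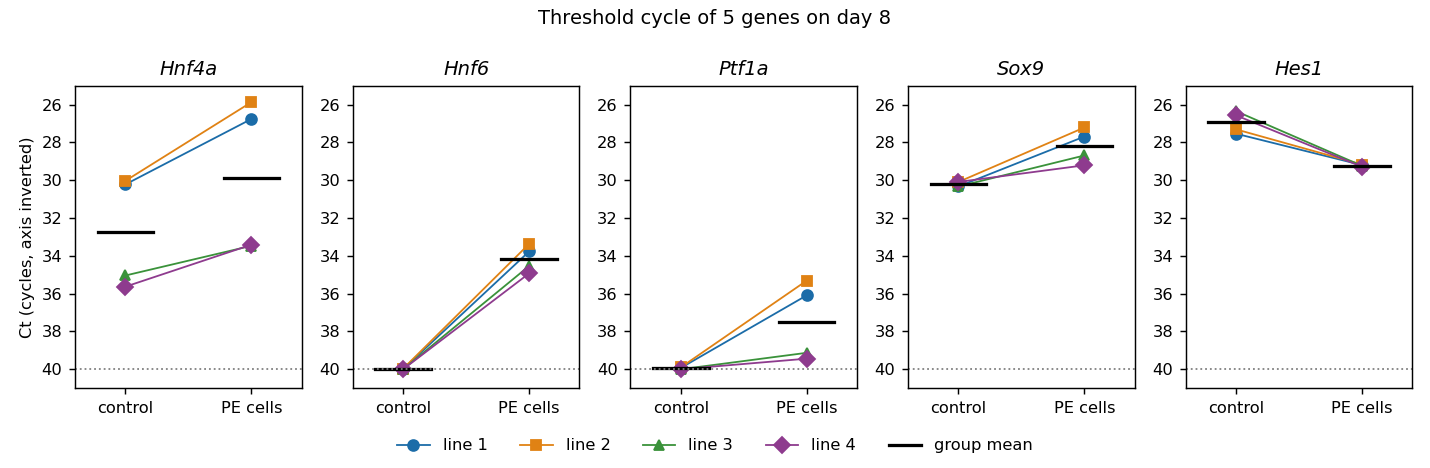
Ct in cycles (vertical axis, inverted so that more template is higher) of 5 genes in controls and PE cells of day 8; lines join the samples of a cell line, black bars are group means and the dotted line is the highest listed Ct, 40. *Hnf6* left the limit in all 4 lines, *Ptf1a* clearly in lines 1 and 2, and the *Hes1* values of PE cells lay within 29.17 to 29.29 cycles.

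*Sox9* was already well detected in undifferentiated cells, with Ct values of 30.33, 30.09, 30.33 and 30.09 cycles in lines 1 to 4. PE cells had 27.69, 27.21, 28.69 and 29.21 cycles, earlier than every control. The deposited ratio to *Gapdh* rose from 0.0125 ± 0.00590 to 0.0908 ± 0.0308 (SD, n = 4), a relative expression of 7.25 ± 2.46 (exact Mann–Whitney U test, p = 0.0286, adjusted 0.0343). Within lines the increase was 5.49, 7.46, 11.2 and 7.52 times. The lowest PE ratio was 3.64 times the highest control ratio. The 4 control Ct values consist of 2 numbers, each listed in 2 lines, and the PE values of lines 3 and 4 exceed those of lines 1 and 2 by exactly 1.00 and 2.00 cycles. In lines 1 and 2 alone, without the repeated numbers, *Sox9* was 6.49 times the controls of these lines. When the mean Ct of the other genes, most of which moved earlier, replaced *Gapdh*, *Sox9* was 0.846 times the controls.

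*Hes1* was the gene that fell. Its Ct was 27.54, 27.31, 26.35 and 26.57 cycles in controls and 29.20, 29.17, 29.24 and 29.29 cycles in PE cells. All PE samples were later than all controls, with an SD of 0.052 cycles in PE cells and 0.572 cycles in controls (n = 4 each). In every line the Ct of *Hes1* moved later, by 1.66, 1.86, 2.89 and 2.72 cycles. Relative mRNA expression was 0.0933 ± 0.0158 in PE cells and 1 ± 0.991 in controls (SD, n = 4; exact Mann–Whitney U test, p = 0.0286, adjusted 0.0343). With 1 common *Gapdh* Ct per sample, taken as the median over the genes, the value was 0.399. It was 0.677 in lines 1 and 2 alone and 0.0482 in lines 3 and 4 alone. The spread of the controls came from 2 levels, 0.146 and 0.141 in lines 1 and 2 and 1.92 and 1.79 in lines 3 and 4. PE cells accordingly had 56.5% and 79.4% of the *Hes1* of their own control in lines 1 and 2, and 5.25% and 4.35% in lines 3 and 4. The *Hes1* ratio of the control of line 2, 0.0589505, is also listed for *Hnf4a* in that sample and in PE cells of lines 1 and 2. It is the lowest *Hes1* control ratio and only 1.26 times the highest PE ratio. When cell line entered the limma fit, *Hes1* had an adjusted p-value of 0.0506, and without it 0.0384.

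**Figure D2:**
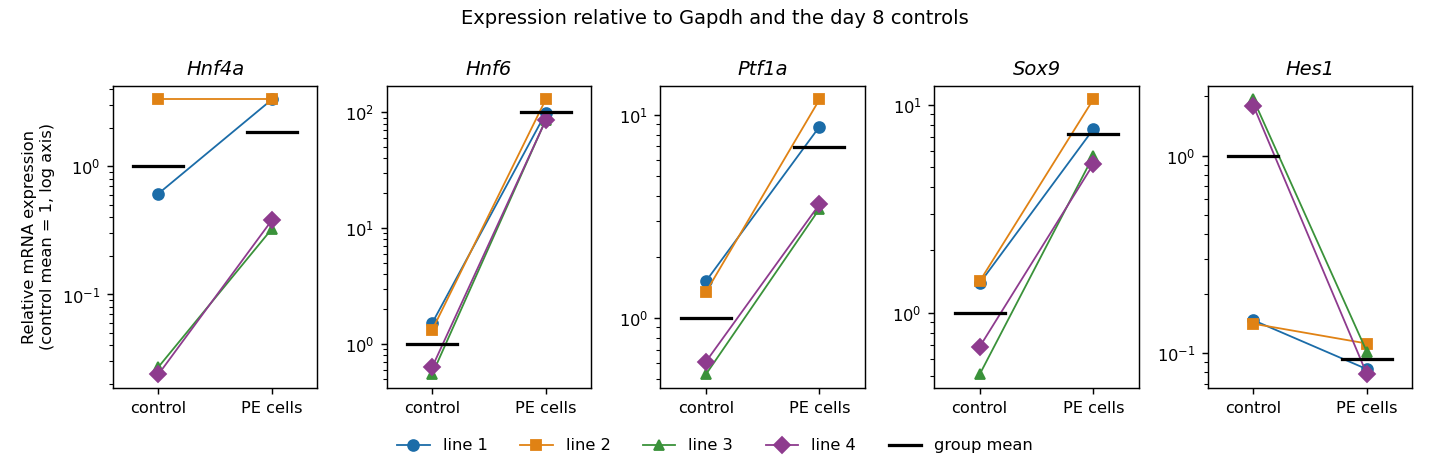
Relative mRNA expression (ratio to *Gapdh* over the mean control ratio, log axis, a scale of its own in each panel) of the same samples, joined by cell line, with black bars for the arithmetic group means. Controls and PE cells overlap for *Hnf4a* alone, and the *Hes1* controls of lines 3 and 4, at 1.92 and 1.79, stand above those of lines 1 and 2, at 0.146 and 0.141.

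*Hnf4a* differed more between lines than between groups. Control cells had Ct values of 30.22 and 30.03 cycles in lines 1 and 2, compared with 35.04 and 35.63 cycles in lines 3 and 4. In PE cells it was 26.76, 25.87, 33.47 and 33.41 cycles. Lines 1 and 2 were thus ahead of lines 3 and 4 by 5.21 cycles in controls and by 7.13 cycles in PE cells, while the mean change between the groups was 2.85 cycles. Within each of the 4 lines the Ct moved earlier, by 3.46, 4.16, 1.57 and 2.22 cycles. The deposited ratios gave 1.84 ± 1.72 against 1 ± 1.58 (SD, n = 4; exact Mann–Whitney U test, p = 0.486). PE cells of lines 1 to 4 had 5.44, 1, 12.0 and 16.1 times the own control. The *Hnf4a* ratio 0.0589505 is listed for 3 samples, the control of line 2 and PE cells of lines 1 and 2, whose Ct values are 30.03, 26.76 and 25.87 cycles. The changes of lines 1 and 2 by the deposited ratio rest on this repeated number. The mean change was 1.19-fold without line 1 and 6.09-fold without line 2. When cell line entered the limma fit, the adjusted p-value of *Hnf4a* was 0.0313, and without it 0.176.

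The reference gene was examined because it enters every ratio. No Ct is listed for *Gapdh* itself, so it was calculated back from each gene's Ct and ratio. Within a sample all genes should give a single *Gapdh* Ct if a single measurement was used. *Hnf6* and *Sox9* gave the same value within 0.02 cycles in every sample, and *Ptf1a* joined them in 6 of 8 samples, the exceptions being PE cells of lines 1 and 2. The value implied by *Hnf4a* differed from the median of its sample by -2.50 to 1.67 cycles and in no sample by less than the -0.79 cycles of the line 1 control. For *Hes1*, control cells of lines 3 and 4 differed by 3.01 and 2.92 cycles, but the difference was 0.0555 and -0.19 cycles in PE cells of lines 1 and 3. Across the 6 genes, the implied *Gapdh* Ct of 1 sample spanned from 0.977 cycles in the control of line 1 to 3.01 cycles in the control of line 3, which equals a 1.97-fold and an 8.07-fold difference in the ratio.

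**Figure D3:**
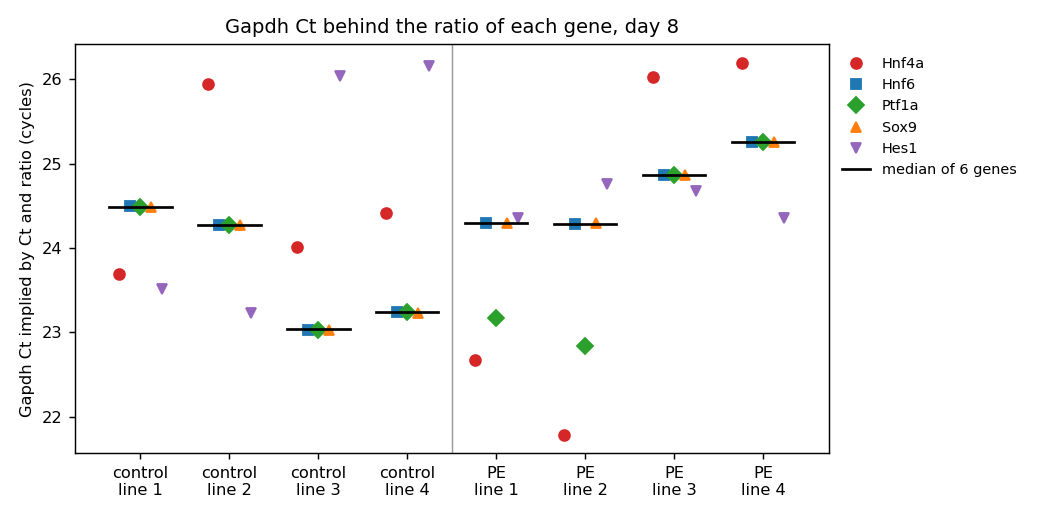
*Gapdh* Ct in cycles (vertical axis) implied by the Ct and the deposited ratio of each of 5 genes in the 8 samples; the black bar is the median over the 6 genes of a sample. In the controls of lines 3 and 4 *Hes1* implies 26.04 and 26.15 cycles, while the medians are 23.03 and 23.24 cycles.

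The median over the 6 genes was taken as a common *Gapdh* Ct for each sample. It was 24.48, 24.27, 23.03 and 23.24 cycles in controls and 24.29, 24.29, 24.87 and 25.25 cycles in PE cells. From control to PE cells it changed by -0.19 and 0.01 cycles in lines 1 and 2 and by 1.83 and 2.01 cycles in lines 3 and 4. The group difference of 0.918 cycles did not exceed the spread of the lines (permutation test, exact and two-sided, p = 0.114). *Gapdh* is the one gene that can be followed through all stages. From controls to induced cells its Ct changed by -0.700 cycles on average on day 3 and by 5.13 cycles on day 13, and the shift of day 8 differed from both (exact two-sided permutation tests over the 4 lines, p = 0.0286 each, Benjamini-Hochberg adjusted over the 2 tests 0.0286). Paired by line, the same differences had p = 0.125 each, the smallest an exact sign-flip test of 4 pairs can give.

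The 5 genes were compared again within each line with the common *Gapdh* Ct, an analysis added once their values were known. *Hnf6* and *Sox9*, which already shared that reference, kept their changes of 65.4 to 157 times and 5.47 to 11.1 times. *Hnf4a* became similar in all 4 lines, at 9.66, 18.1, 10.6 and 18.8 times its own control, with a mean log2 change of 3.77 ± 0.25 (SE, n = 4 lines) in place of 2.51 ± 0.90. Its groups still overlapped (exact Mann–Whitney U test, p = 0.343), since the lines kept their different starting levels. *Ptf1a* spread out, to at least 12.6 and 24.3 times in lines 1 and 2 and 6.52 and 5.95 times in lines 3 and 4. *Hes1* fell to 0.278 times in both lines 1 and 2 and to 0.481 and 0.613 times in lines 3 and 4. The order of the lines for *Hes1* was therefore opposite to that of the deposited ratios, in which lines 3 and 4 had fallen furthest. The direction of *Hes1* was downward in all 4 lines on both scales and by Ct alone.

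**Figure D4:**
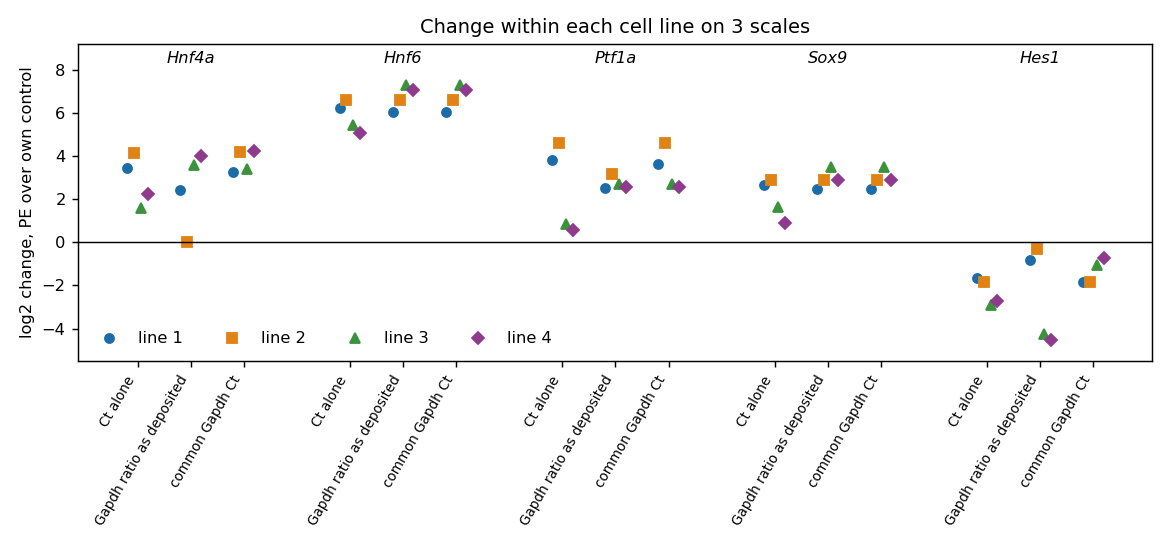
Change within each cell line (log2, PE cells over the control of the line) by Ct alone, by the deposited ratio to *Gapdh*, and with a common *Gapdh* Ct per sample. *Hnf6*, *Ptf1a* and *Sox9* are above 0 and *Hes1* is below 0 in all 4 lines on every scale, while *Hnf4a* is at 0 in line 2 by the deposited ratio and above 0 elsewhere.

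A pattern of lines ran through the raw Ct values. For all 4 genes that moved earlier, *Hnf4a*, *Hnf6*, *Ptf1a* and *Sox9*, lines 1 and 2 moved further than lines 3 and 4. *Sox9*, for example, moved by 2.64 and 2.88 cycles in lines 1 and 2 and by 1.64 and 0.88 cycles in lines 3 and 4. After the common *Gapdh* Ct was subtracted, this held for 1 of the 4 genes, *Ptf1a*. The common *Gapdh* Ct was itself later in PE cells of lines 3 and 4, and its part in the pattern was not tested further.

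To remove the reference gene altogether, the Ct difference between 2 genes of the same sample was compared between the groups for all 10 pairs of the 5 genes, an analysis added after the values were seen. In 5 of 10 pairs (50%) the groups did not overlap (exact Mann–Whitney U test, p = 0.0286 each, Benjamini-Hochberg adjusted over the 10 pairs 0.0571), so none passed 0.05 after adjustment. By Ct alone, *Hnf6*, *Ptf1a* and *Sox9* had each separated toward an earlier Ct and *Hes1* toward a later one. Their pairs with *Hes1* therefore had to separate, are no further test and describe only the size of the contrast. *Hes1* was ahead of *Sox9* in every control, by 2.79, 2.78, 3.98 and 3.52 cycles, and behind it in every PE sample, by 1.51, 1.96, 0.55 and 0.08 cycles. The balance of *Sox9* to *Hes1* shifted by 4.29 ± 0.50 cycles (SD, n = 4 lines), or 19.6-fold. The *Sox9* control Ct values behind it are the 2 numbers each listed in 2 lines. *Ptf1a* against *Hes1* shifted by at least 4.75 ± 1.48 cycles, and *Hnf6* against *Hes1* by at least 8.12 ± 0.33 cycles.

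Among the genes that rose, *Hnf6* gained on *Sox9* by at least 3.83 ± 0.26 cycles (SD, n = 4 lines), with 3.58, 3.72, 3.82 and 4.19 cycles in lines 1 to 4. The *Hnf6* controls were at the limit in every line, so they add almost nothing to this spread. The *Sox9* controls are again 2 numbers, each listed in 2 lines. *Hnf6* also gained on *Ptf1a*, by 2.38, 2.01, 4.59 and 4.51 cycles, but both sets of controls were at the limit, so this compares the PE samples alone. *Ptf1a* against *Sox9* had no common direction, with 1.20 and 1.71 cycles in lines 1 and 2 and -0.77 and -0.32 cycles in lines 3 and 4 (exact Mann–Whitney U test, p = 1). *Hnf4a* against *Hes1* overlapped between the groups because of the different levels of the lines, yet moved by 4.46 to 6.02 cycles in all 4 lines.

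**Figure D5:**
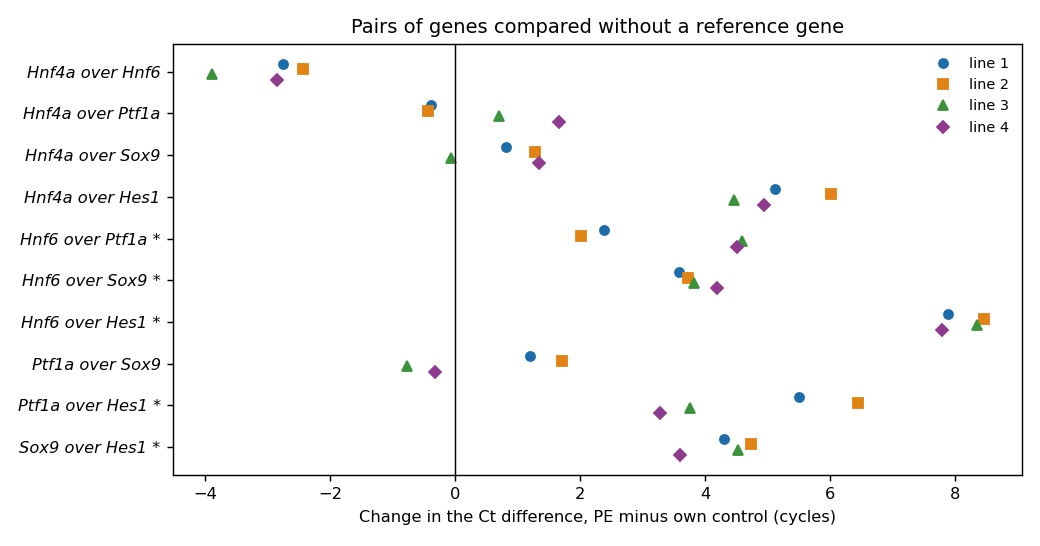
Change in the Ct difference of 2 genes of a sample, PE cells minus the control of the same line, in cycles (horizontal axis), where a positive value means a gain of the first gene over the other; points are cell lines and asterisks mark the 5 pairs whose groups do not overlap. Every pair that sets a gene against *Hes1* is above 0 in all 4 lines, from 3.28 to 8.46 cycles.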

How the data were processed

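RT-qPCR values of 26 genes in 24 samples (6 groups of 4) were used. The authors used TRIzol and a Direct-zol kit for RNA, the ImProm-II system for reverse transcription and SYBR Green for detection. They deposited Ct values, in cycles, and the ratio of each gene to *Gapdh* (2 to the power of −ΔCt). Replicate wells, efficiencies and melting curves are not given in the sources used here. A table of fold changes made by the authors was not used. Ct values have no read depth, and their precision falls toward the limit of 40. One gene of day 8 enters counts and medians but is not reported here.

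Samples were grouped and numbered by their titles. The labels give day 8 for samples that the series' design text places on day 5, and the labels were followed. All genes of day 8 were named except that one, ordered by role. Genes and lists were chosen with earlier results of these data known. P-values measure the spread between 4 lines, which come from 4 dogs. Lines pair the samples by donor, and the Mann–Whitney tests do not use this pairing. Deviations from the group means on the log2 scale correlated across the 6 genes with r of 0.783 to 0.861 for the same line. Correlations between different lines were not calculated, so these values do not test the pairing.

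*Gapdh* Ct was calculated as Ct plus log2 of the ratio. Exact tests were enumerated in Python 3.11.15 with numpy 2.4.6, scipy 1.17.1 and pandas 2.3.3, and figures were made in matplotlib 3.10.9. Log2 ratios were also fitted in limma 3.58.1 under R 4.3.3, with Benjamini-Hochberg adjustment. The exact Mann–Whitney and permutation tests, the overlap call and the limma fit with cell line were tested on simulated data. Those data had no Ct limit, and the *Gapdh* calculation and the gene pairs were not tested in this way. Alternatives were an exact permutation test, adjustment for multiple tests, pairing of samples, limma fits (cell line as a factor or not), lines left out, raw Ct, other reference values, geometric means, a filter at a mean Ct of 35, a Ct cap at 38 and an amplification factor of 1.8 in place of 2.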

Additional observations from a re-analysis of the deposited data

Results flagged for a closer look

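The *Gapdh* shift from control to induced cells differed between stages. On day 8 it was 0.918 ± 1.17 cycles (SD, n = 4 lines), which was 1.62 cycles above that of day 3 and differed from that of day 13 by -4.21 cycles (exact two-sided permutation tests, p = 0.0286 each), with p = 0.125 each when paired by line. The shift of day 8 also had the widest spread between lines of the 3 stages, with an SD of 1.17 cycles against 0.313 cycles on day 3 and 0.160 cycles on day 13. In 22 sets of 4 samples (the ratios and Ct values of the 5 genes and the median *Gapdh* Ct, per group), 0 samples exceeded Dixon's critical gap.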

How the results depend on the processing

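The count of separated genes, 5 of 6, changed by over 1.5 times in 2 of 19 alternatives. It was 2 of 6 when the other genes' mean Ct replaced *Gapdh*. It was 3 of 4 when 2 genes whose mean Ct reached 35 in both groups were dropped, *Ptf1a* among them. With each line left out it stayed at 5. Paired by line, 5 genes moved one way in all 4 lines, 4 higher and 1 lower. Limma with the line as a replicate block called a different set, 5 higher and 0 lower. There *Hnf4a* passed (limma adjusted p = 0.0313) and *Hes1* did not (limma adjusted p = 0.0506). By raw Ct 4 of 6 genes (66.7%) separated. The direction of *Hnf6*, *Ptf1a*, *Hnf4a* and *Hes1* was the same in every alternative, with relative values of 21.3 to 146, 1.51 to 14.7, 1.19 to 14.4 and 0.0286 to 0.677. *Sox9* reversed with the other genes' mean Ct, at 0.846, and was otherwise 4.63 to 9.06. The *Gapdh* difference of 0.918 cycles reversed with the values implied by *Hes1* (-0.20) and *Hnf4a* (-0.34). With lines left out it was 0.553 to 1.29 cycles. The *Gapdh* shift of day 8 against day 3 was 1.32 to 2.03 cycles with lines left out, and against day 13 -4.59 to -3.80 cycles. Paired by line these differences were 1.62 and -4.21 cycles (exact sign-flip test, p = 0.125 each, the smallest 4 pairs can give). Gene pairs without overlap numbered 5 with each line left out. They numbered 10 in lines 1 and 2 alone and 9 in lines 3 and 4 alone. With 2 against 2 samples groups separate far more easily without any difference, so no conclusion is drawn from these last counts. The causes were not tested. No count of molecules is known, and changes of *Hnf6* and *Ptf1a* are limited by controls at the highest Ct.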
